A study of Mus musculus with 16 samples.

Results

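The nuclear genes for subunits of the respiratory chain and the ATP synthase were followed in TUBO cells, in which miR-135b was silenced over a time course. Members were the probes whose symbol in the platform annotation begins with Nduf, Uqcr, Cox4, Cox5, Cox6, Cox7, Cox8 or Atp5, or is Sdha, Sdhb, Sdhc or Sdhd. The rule gave 107 probes for 85 genes, of 25697 probes and 16593 named genes on the array. By complex, 34 genes belonged to complex I, 3 to complex II, 8 to complex III, 18 to complex IV and 16 to complex V, the ATP synthase. A further 5 were Ndufaf assembly factors of complex I, which are not subunits, and 1 was the pseudogene Ndufs5-ps. No probe carried the symbol Sdha.

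The respiratory chain sits in the inner mitochondrial membrane. Complex I takes electrons from NADH and complex II takes them from succinate, both pass them to ubiquinone, and complex III hands them on through cytochrome c to complex IV, which reduces oxygen. Complexes I, III and IV pump protons, and the ATP synthase uses the proton gradient to make ATP. Most subunits are encoded in the nucleus, and the rest in mitochondrial DNA. In complex I the N module of the matrix arm oxidizes NADH, the Q module reduces ubiquinone, and the membrane arm pumps protons.

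TUBO is a single cell line grown from a mammary carcinoma of the BALB-neuT mouse, which carries an activated rat neu (ErbB2) transgene. All cells received 200 nM of a hairpin inhibitor with Lipofectamine. Cells with the miR-135b hairpin inhibitor, called anti-miR-135b here, were sampled at 24, 48 and 72 h in 2, 3 and 3 samples. Cells with a negative control hairpin, labelled scrambled, were sampled at the same times in 2, 3 and 3 samples, which makes 6 groups. Each of the 16 samples was hybridized to 1 Illumina bead array, and no label says whether replicates came from separate cultures, so p-values measure the spread between these samples. The array medians lay between 281.2 and 346.8 intensity units, and replicate arrays correlated with Pearson's r of 0.9205 to 0.9728 over probes. Both arms at 48 h and the control at 24 h lay on chip 1, and both arms at 72 h and anti-miR-135b at 24 h lay on chip 2. Of the fixed epithelial markers, Krt8, Krt18, Cdh1 and Cldn7 passed the filter described next and Krt19 did not, while 0 of 3 leukocyte markers with a probe, 1 of 6 of fibroblasts and endothelium (Col1a2) and 1 of 6 of adipocytes and muscle (Adipoq) passed.

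Values below are log2 intensities after background correction and quantile normalization. A probe was tested where its mean over the 16 arrays exceeded 7.1, the median of all probes, and 92 member probes of 75 genes did so, among 12848 probes in all. The kept member probes were 42 of 44 for complex I, 5 of 6 for complex II, 7 of 9 for complex III, 13 of 21 for complex IV and 18 of 18 for complex V. The 10 genes without a kept probe were Ndufs1, Uqcrfs1, Uqcrq, Cox4i2, Cox6a2, Cox6b2, Cox7a1, Cox7b2, Cox8b and Cox8c. In complex IV these were the isoforms known from lung (Cox4i2), heart and skeletal muscle (Cox6a2, Cox7a1, Cox8b) and testis (Cox6b2, Cox7b2, Cox8c). The ubiquitous counterparts Cox4i1, Cox6a1, Cox6b1, Cox7a2, Cox7b and Cox8a had kept probes, as did Cox5a, Cox5b and the Cox7a2-like gene Cox7a2l. All of the c ring genes Atp5g1, Atp5g2 and Atp5g3 had kept probes. Some of these genes have processed pseudogenes, and whether a probe also reads such a copy was not tested.

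The difference of anti-miR-135b from control did not pass the test for any member at any time. In anti-miR-135b cells, members of all 5 complexes were higher at 72 h than at 24 h. In that comparison 19 of the 92 member probes, of 17 genes, passed an adjusted p of 0.05 in limma, and all 19 were higher at 72 h. Over all probes tested, 7.98% passed in either direction, 4.2% higher and 3.77% lower. The difference was above 0 for 76 member probes (82.6%, against 51.3% of all probes), with a median of 0.44 over the members and of 0.014 over all probes. Restricted to probes in the upper quartile of signal, the medians were 0.50 over 83 member probes and 0.030 over all probes. The arrays at 72 h lay wholly above those at 24 h for 58 member probes (63%) and wholly below for 7 (7.61%), against 22.2% and 21.9% of all probes. Both times lay on chip 2, with the 24 h samples in its last positions, so time and position cannot be told apart. The calls depended on single arrays, since without anti-miR-135b replicate 12 at 24 h none of the members and 25 of all probes passed. Without replicate 11 at 24 h 7 member probes passed (7.61%, against 3.69% of all probes), and without replicate 16 at 72 h 4 did (4.35%, against 3.43%). The median difference of the members stayed between 0.39 and 0.52 with any 1 of the 5 arrays left out.

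**Figure D1:**
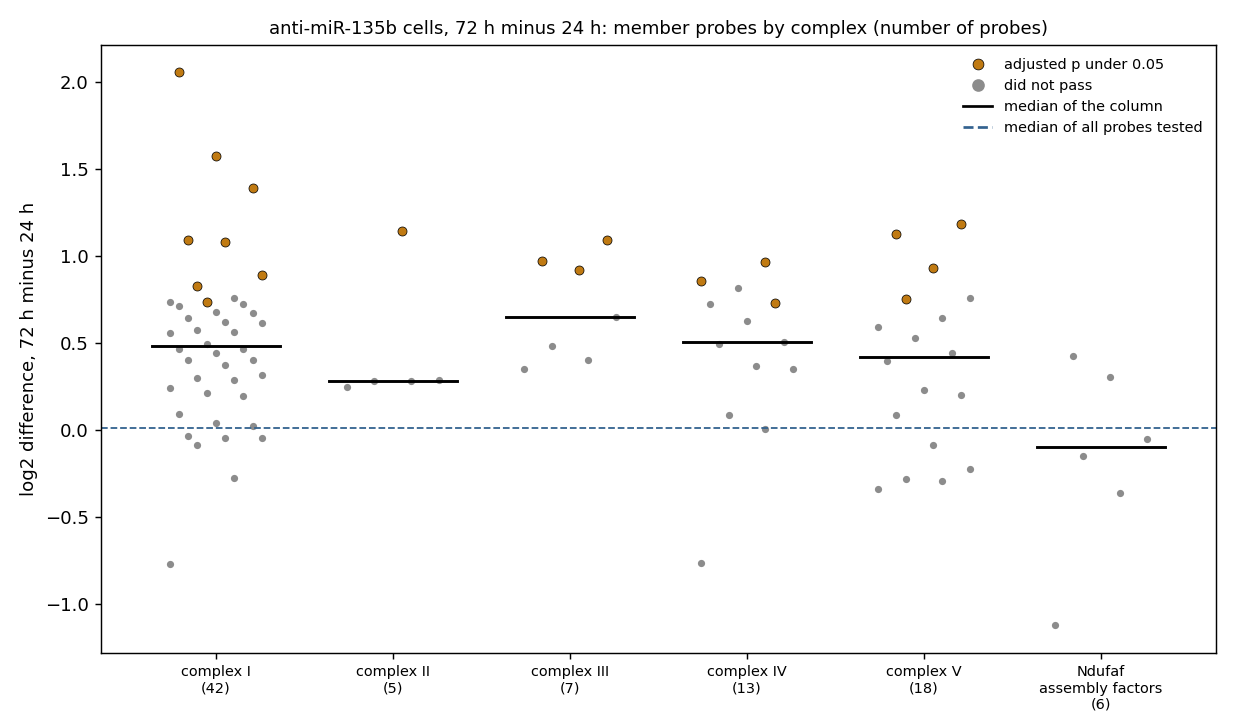
Log2 difference of each member probe other than Ndufs5-ps in anti-miR-135b cells, 72 h minus 24 h, in a column per complex and 1 for the Ndufaf assembly factors, with the number of probes in brackets. Orange points passed an adjusted p of 0.05 in limma and grey points did not, black bars are column medians and the dashed line is the median of all probes tested; the medians are 0.48, 0.28, 0.65, 0.51 and 0.42 in complexes I to V and -0.10 in the assembly factors.

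In complex I, 8 of 42 probes passed, all higher at 72 h, and the median difference was 0.48. Ndufv3, a small accessory subunit beside the NADH-binding flavoprotein, had the largest difference. Its probe ILMN_2668977 read 12.92, 12.27 and 12.56 at 72 h under anti-miR-135b, against 10.71 and 10.35 at 24 h. All arrays at 72 h lay above both at 24 h, a difference of 2.06 ± 0.34 (SE), or 4.16-fold, with an adjusted p of 0.00277 in limma. A second probe, ILMN_3008277, averaged 11.90 ± 0.46 (SD, n = 3) at 72 h and 10.32 ± 0.28 (SD, n = 2) at 24 h, a difference of 1.57 (adjusted p 0.011). The third, ILMN_2688822, averaged 7.26 ± 0.22 (SD, n = 3) at 72 h and 7.22 ± 0.12 (SD, n = 2) at 24 h. Ndufv3 is made as a short and a long splice form, and the sources used here do not say which form each probe reads. The control arm is shown beside it without a test across chips. There ILMN_2668977 read 10.92 and 10.79 at 24 h, 12.44, 11.89 and 11.74 at 48 h and 13.48, 12.80 and 12.34 at 72 h.

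Ndufa7, an accessory subunit of the matrix arm, read 12.39, 12.11 and 11.72 at 72 h, against 10.75 and 10.62 at 24 h in anti-miR-135b cells. Its groups did not overlap, and the difference was 1.39 ± 0.24 (SE, adjusted p 0.00285). Ndufa6, an accessory subunit of the LYR family, read 12.71, 12.34 and 12.14 at 72 h, against 11.21 and 11.42 at 24 h. It rose by 1.08 ± 0.25 (SE, adjusted p 0.0147). Ndufs7, a core iron-sulphur subunit of the Q module next to the ubiquinone site, read 12.46, 12.27 and 11.76 at 72 h, against 11.16 and 10.98 at 24 h. It rose by 1.09 (adjusted p 0.0232), again with no overlap. In the N module all 14 kept probes had a difference above 0, with a median of 0.59, and 4 passed. Of the 14, 4 were probes of Ndufs4 and 3 of Ndufv3. The Ndufv3 probes ILMN_2668977 and ILMN_3008277 were among those that passed, so the calls cover fewer genes than probes. In the Q module all 6 were above 0 and 1 passed. The membrane arm had 16 of 20 probes above 0 and 3 that passed.

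Those 3 membrane arm subunits were Ndufa13, Ndufb2 and Ndufb8, all accessory subunits. Ndufa13, first described as the cell death factor GRIM-19, averaged 13.52 ± 0.13 (SD, n = 3) at 72 h and 12.62 ± 0.24 (SD, n = 2) at 24 h (adjusted p 0.0149). Ndufb8 averaged 12.91 ± 0.044 (SD, n = 3) at 72 h and 12.18 ± 0.027 (SD, n = 2) at 24 h (adjusted p 0.0293). Ndufb2 averaged 10.27 ± 0.29 (SD, n = 3) at 72 h and 9.44 ± 0.089 (SD, n = 2) at 24 h (adjusted p 0.025). Just outside the threshold lay an Ndufs4 probe at 0.76, Ndufa10 at -0.77 (adjusted p 0.0606 for both) and, in complex IV, Cox5a at -0.76 (adjusted p 0.0631). Ndufs4, an N module subunit that is mutated in Leigh syndrome in humans, had 4 kept probes, with differences of 0.76, 0.62, 0.56 and 0.46. None of them passed. Ndufa10, a membrane arm subunit, read 10.24, 10.50 and 10.09 at 72 h, against 10.87 and 11.22 at 24 h. It went the other way from most of its complex, with groups that did not overlap. Of the 12 genes with several kept probes, Ndufa8, Ndufc1 and Atp5j had probes of opposite sign.

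In complex II, 1 of 5 probes passed. Sdhc, a membrane anchor that helps hold the haem and the ubiquinone site, read 11.60, 10.95 and 11.55 at 72 h, against 10.47 and 9.98 at 24 h on probe ILMN_2594149. The groups did not overlap and the difference was 1.14 ± 0.31 (SE, adjusted p 0.0295). Its second probe did not pass the filter. Sdhd, the other membrane anchor, averaged 9.73 ± 0.027 (SD, n = 3) at 72 h and 9.45 ± 0.20 (SD, n = 2) at 24 h, and its difference of 0.28 did not pass (adjusted p 0.496). The 3 probes of Sdhb, the iron-sulphur subunit, had differences between 0.25 and 0.29 and none passed.

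In complex III all 7 kept probes were above 0, with a median of 0.65, and 3 passed, for 2 genes. Uqcr10, a small subunit without a redox centre, read 13.79, 13.57 and 13.54 at 72 h, against 12.74 and 12.58 at 24 h on probe ILMN_3142224. Its second probe read 14.02, 13.57 and 13.63 at 72 h, against 12.93 and 12.71 at 24 h. The probes of Uqcr10 gave like differences of 0.97 (adjusted p 0.00479) and 0.92 (adjusted p 0.011), and neither had overlapping groups. Uqcrh, the hinge protein at cytochrome c1, read 13.02, 12.80 and 12.47 at 72 h, against 11.58 and 11.77 at 24 h. It rose by 1.09 ± 0.25 (SE, adjusted p 0.0134). The core subunits Uqcrc1 and Uqcrc2 had differences of 0.40 and 0.35, which did not pass. Cyc1, the cytochrome c1 gene itself, is outside the naming rule and had a difference of -0.12 (adjusted p 0.82).

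In complex IV, 3 of 13 probes passed and 12 were above 0. Cox4i1, the ubiquitous form of a subunit that takes part in early assembly, read 14.22, 14.06 and 14.20 at 72 h, against 13.46 and 13.15 at 24 h. It rose by 0.86 ± 0.22 (SE, adjusted p 0.0219) and its groups did not overlap. Cox7b rose by 0.97 ± 0.27 (SE, adjusted p 0.0323) and Cox8a by 0.73 ± 0.22 (SE, adjusted p 0.0491). Both are small single-span subunits of the enzyme. Cox5a, a matrix-side subunit, was the 1 probe of complex IV below 0, and read 11.45, 11.78 and 11.55 at 72 h, against 12.40 and 12.32 at 24 h. Ndufa4, which carries a complex I name but is counted with complex IV in structures of the human enzyme, had a difference of -0.047 and stands in the count of complex I, as its name places it.

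In complex V, 4 of 18 probes passed and 13 were above 0. Atp5j2, the f subunit in the membrane part, read 14.10, 13.95 and 13.91 at 72 h, against 12.92 and 12.80 at 24 h. It had little spread within groups, and the difference was 1.12 ± 0.19 (SE, adjusted p 0.00281). Atp5mpl, a small proteolipid of the membrane part, rose by 0.93 ± 0.28 (SE, adjusted p 0.0484). Atp5o, the peripheral stalk subunit that confers sensitivity to oligomycin, rose by 0.75 ± 0.20 (SE, adjusted p 0.0254). Of the genes that encode the same mature c subunit, Atp5g2 read 10.95, 10.63 and 10.26 at 72 h, against 9.22 and 9.64 at 24 h, and rose by 1.18 ± 0.29 (SE, adjusted p 0.0175). Atp5g1 and Atp5g3 had differences of -0.084 and -0.28, which did not pass. In the catalytic head and central stalk 0 of 5 probes passed, 3 were above 0 and the median was 0.44. Atp5c1, Atp5d and Atp5e, the gamma, delta and epsilon subunits of the central stalk, had differences of 0.64, 0.53 and 0.44. Atp5a1 and Atp5b, the alpha and beta subunits of the head, had differences of -0.34 and -0.29. The Ndufaf assembly factors had a median of -0.10 and none passed, with Ndufaf4 at -1.12 (adjusted p 0.146).

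**Figure D2:**
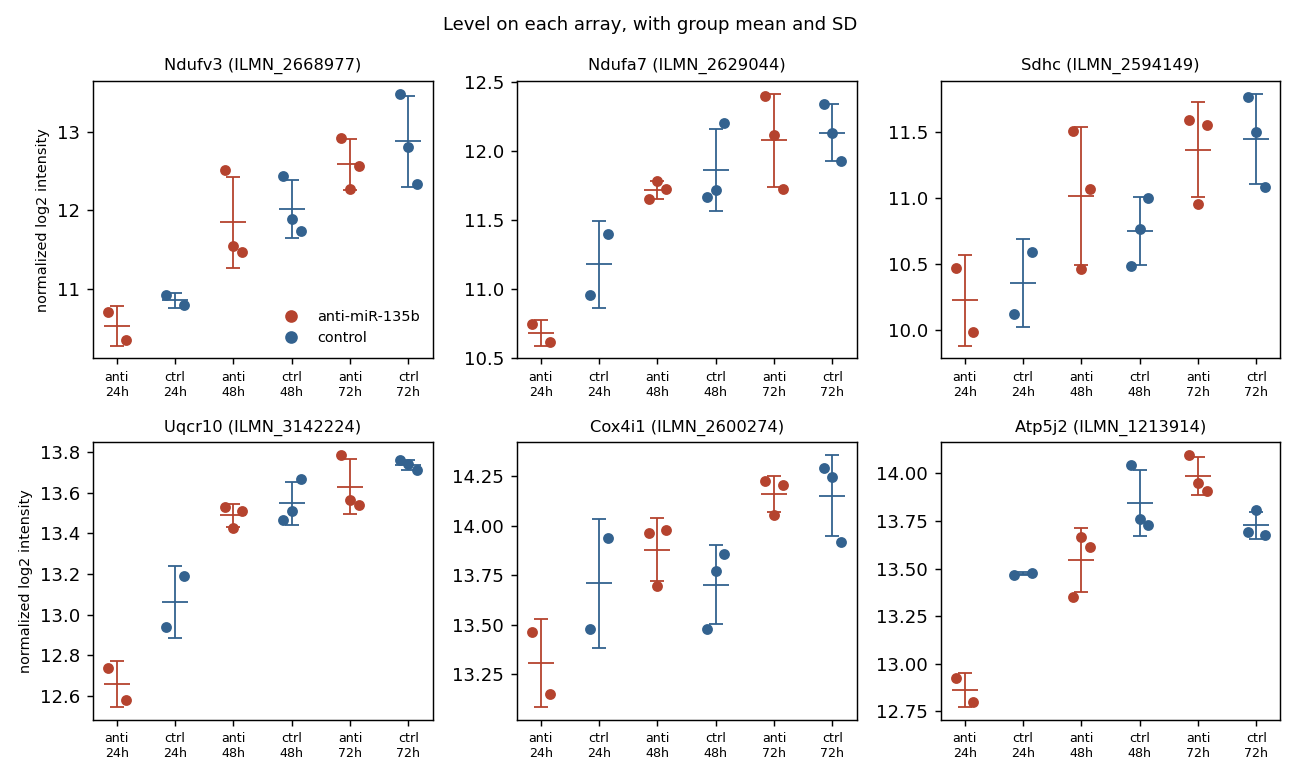
Normalized log2 intensity of 1 probe each of Ndufv3, Ndufa7, Sdhc, Uqcr10, Cox4i1 and Atp5j2 on each of the 16 arrays, with group means (bars) and SD (whiskers), anti-miR-135b in red and control in blue. In each panel both anti-miR-135b arrays at 24 h lie below all 3 at 72 h; for Ndufv3 they read 10.71 and 10.35, against 12.27 to 12.92.

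The promoters of 5 genes that rose by more than 1 are shown, chosen after their values were seen to show windows with each of the motifs named next. They come from RefSeq (GRCm38.p6) and run 5′ to 3′ on the gene's strand from 250 bases before the start to 50 after it. Capitals mark matches, on either strand, to GCGCA and GCGC with any 1 base between them (NRF1), CCGGAAG (ETS factors such as GABPA), GGGCGG (SP1) and ATGGCGGC (YY1), all factors known to act at respiratory genes. Ndufv3 lies at chr17:31519865-31520164 (+), Ndufa7 at chr17:33824322-33824621 (+), Atp5g2 at chr15:102670998-102671297 (-), Ndufa6 at chr15:82354242-82354541 (-) and Uqcrh at chr4:116075021-116075320 (-).
Ndufv3: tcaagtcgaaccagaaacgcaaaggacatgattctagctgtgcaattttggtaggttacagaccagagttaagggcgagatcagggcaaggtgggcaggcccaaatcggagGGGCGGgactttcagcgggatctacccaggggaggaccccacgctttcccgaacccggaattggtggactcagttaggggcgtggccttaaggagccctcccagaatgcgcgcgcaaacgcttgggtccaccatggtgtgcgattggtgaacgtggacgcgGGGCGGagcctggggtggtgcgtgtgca
Ndufa7: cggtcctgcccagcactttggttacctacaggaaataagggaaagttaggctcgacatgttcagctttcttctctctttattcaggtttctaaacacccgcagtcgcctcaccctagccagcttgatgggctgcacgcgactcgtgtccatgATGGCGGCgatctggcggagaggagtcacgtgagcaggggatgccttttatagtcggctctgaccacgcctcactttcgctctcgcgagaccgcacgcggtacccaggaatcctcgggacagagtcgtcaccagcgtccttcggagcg
Atp5g2: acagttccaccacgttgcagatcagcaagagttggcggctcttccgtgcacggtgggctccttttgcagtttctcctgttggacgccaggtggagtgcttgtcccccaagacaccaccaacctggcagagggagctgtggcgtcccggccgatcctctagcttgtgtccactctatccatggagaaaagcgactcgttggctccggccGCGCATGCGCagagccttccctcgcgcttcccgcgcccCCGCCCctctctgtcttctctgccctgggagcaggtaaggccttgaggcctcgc
Ndufa6: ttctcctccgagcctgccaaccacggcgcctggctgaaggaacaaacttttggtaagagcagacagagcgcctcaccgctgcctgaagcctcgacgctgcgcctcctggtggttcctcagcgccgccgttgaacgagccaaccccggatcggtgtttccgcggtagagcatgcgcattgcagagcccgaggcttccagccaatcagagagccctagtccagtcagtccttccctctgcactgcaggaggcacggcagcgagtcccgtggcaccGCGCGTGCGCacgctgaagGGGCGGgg
Uqcrh: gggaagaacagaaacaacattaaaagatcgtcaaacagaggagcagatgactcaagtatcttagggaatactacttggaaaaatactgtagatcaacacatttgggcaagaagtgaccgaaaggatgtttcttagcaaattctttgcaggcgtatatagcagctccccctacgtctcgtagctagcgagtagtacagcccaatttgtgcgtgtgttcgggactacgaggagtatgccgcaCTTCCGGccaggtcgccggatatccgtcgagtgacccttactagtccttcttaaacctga

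The Ndufv3 window holds 2 SP1 matches, Ndufa7 1 YY1 match, Atp5g2 and Ndufa6 1 NRF1 and 1 SP1 match each, and Uqcrh 1 ETS match. Of the 85 member genes, 70 had a promoter in the table, with 75 windows. NRF1 letters were found in 22.7% of member windows, against 4.6% of all 32851 windows of the same length. The ETS letters were in 22.7% of member windows and 8.86% of all, SP1 in 44% and 35.7%, and YY1 in 9.33% and 2.24%. Among the 15 windows of the 14 matched genes that passed, 3 held NRF1, 2 ETS, 5 SP1 and 3 YY1 letters. Of those 3 YY1 windows, a pair are overlapping windows of Ndufa7 that hold the same site, so 2 genes had a YY1 match. Any of the motifs was found in 11 of the 15 windows (73.3%), against 73.3% of member windows and 40.9% of all. The windows of Atp5j2, Ndufb2, Cox7b and Uqcr10, which also passed and are not shown, held 0 matches. In 1 member window matches of different motifs overlapped. These matches describe letters only and are not evidence of binding.

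The control arm allows a shorter interval within 1 chip, 48 h against 24 h. The 48 h samples held the first positions of the chip and the 24 h samples the last, so time and position cannot be told apart here either. None of the 92 member probes passed there in limma, against 0.926% of all probes. At an unadjusted p of 0.05, 13 members (14.1%) were higher at 48 h and 0 lower, against 7.1% and 5.3% of all probes. The difference was above 0 for 66 members (71.7%, against 52.5% of all probes), with a median of 0.17 over members and 0.021 over all probes. The member median was 0.88 with median scaling, where that of all probes was 0.32, and 0.038 in the authors' deposited table. Complex I, with 42 of the 92 member probes, held 11 of the 13, of which 6 were among its 14 N module probes. Those 14 include 4 probes of Ndufs4 and 3 of Ndufv3. Ndufv2, the small N module subunit with an iron-sulphur cluster, averaged 12.31 at 48 h and 11.63 at 24 h, and had the smallest adjusted p, 0.117. Ndufv3 (ILMN_2668977) had a difference of 1.16 (adjusted p 0.133) and Ndufa7 one of 0.68 (adjusted p 0.214). The lowest p among members below 0 belonged to Cox6a1 (-0.58), Ndufa8 (-0.45) and Uqcrc2 (-0.54). Uqcrc2 read 12.67, 11.80 and 12.03 at 48 h, against 13.31 and 12.10 at 24 h, with 1 array at 24 h above all the others, and without that array the difference was 0.067. With median scaling in place of quantile normalization, 31 members passed (33.7%, against 9.86% of all probes).

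At 24 h the arms lay on different chips, and the inhibitor and the chip cannot be told apart there. Members were lower under anti-miR-135b than in control for 83 of 92 probes, with a median of -0.27, against 50.9% of all probes and a median of -0.0069. With median scaling 54 were lower and 38 higher, with a median of -0.031, and the median of all probes was 0.12. None passed in limma (smallest adjusted p 1), and 0 of all probes did. At an unadjusted p of 0.05, 10 members (10.9%) were lower and 0 higher, against 1.55% and 2.51% of all probes. The arrays lay wholly lower under anti-miR-135b for 47 members (51.1%), against 16.5% of all probes, and wholly higher for 3 (3.26%), against 16.4%. Atp5j2 read 12.92 and 12.80 under anti-miR-135b, against 13.47 and 13.48 in control, a difference of -0.61 ± 0.21 (SE, p 0.00888, adjusted p 1). Cox6b1, a subunit on the intermembrane side of complex IV, read 12.48 and 11.80 under anti-miR-135b, against 13.30 and 12.57 in control on probe ILMN_1254971. Ndufa8, a complex I subunit of the intermembrane side, read 11.22 and 11.32 under anti-miR-135b, against 12.15 and 11.77 in control on probe ILMN_2880067. None of these 3 had overlapping arrays. The members of smallest p above 0 were Atp5g3 (0.29), Ndufc1 (0.16) and Atp5j (0.16), with p of 0.398 or more. Only 1 of 2 kept probes of Ndufc1 and 1 of 3 of Atp5j were above 0. By complex the medians were -0.26 in I, -0.13 in II, -0.37 in III, -0.35 in IV and -0.26 in V.

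The anti-miR-135b arrays at 24 h enter both this comparison and that of 72 h with 24 h, so they are not independent. The median of the members on each array, after each probe was centred on its mean over 16 arrays, was -0.32 and -0.34 on those arrays. It was 0.00053 and -0.14 in control at 24 h, and between -0.083 and 0.20 on the other 12 arrays. In complexes I, III, IV and V these arrays lay below the 14 others. In complex III they stood at -0.56 and -0.53, against -0.20 and -0.19 in control at 24 h. In complex II they overlapped with control, at -0.054 and -0.33 under anti-miR-135b, against 0.065 and -0.20 in control. The raw median intensity of the whole array was 346.8 and 311.9 on the anti-miR-135b arrays at 24 h, and its part in these values was not tested.

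**Figure D3:**
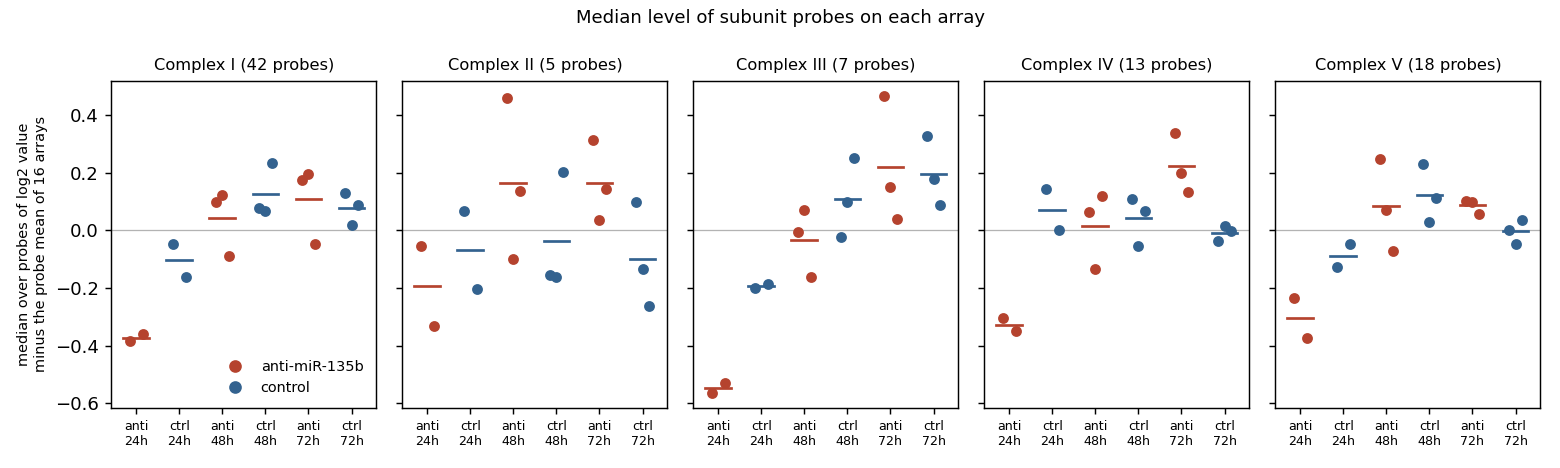
Median over the kept probes of each complex of the log2 value minus the probe's mean over 16 arrays, 1 point per array and a bar at the group mean, anti-miR-135b in red and control in blue. In complex III the anti-miR-135b arrays at 24 h stand at -0.56 and -0.53, below the 14 others.

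At 48 h and at 72 h both arms shared a chip, with control in the earlier positions, so arm and position cannot be told apart. No member passed in limma at 48 h, at 72 h or in their mean, and 0 of all probes did. At 48 h the median over members was -0.074, against -0.0082 over all probes, and 3 members were higher and 6 lower at an unadjusted p of 0.05, against 3.06% higher and 3.18% lower of all probes. The arms did not overlap for 2 members higher and 7 lower (2.17% and 7.61%), against 4.68% and 5.5% of all probes. Ndufb2 read 9.27, 9.12 and 9.16 under anti-miR-135b, against 9.82, 9.66 and 9.95 in control. Its arrays did not overlap, but the difference of -0.63 ± 0.19 (SE) had an adjusted p of 0.735. Cox5a (-0.59) and Cox6c (-0.69) were the other members of smallest p below 0. Above 0 these were Cox6a1 (0.68), Atp5pb (0.57), the b subunit of the peripheral stalk, and Cox7a2l (0.48), a factor of supercomplex assembly. The second probe of Cox6a1 averaged 12.35 under anti-miR-135b, against 11.93 in control, with SDs of 0.27 and 0.23 (n = 3 each).

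At 72 h the median over members was 0.010, against -0.014 over all probes, with 8 members higher and 1 lower at an unadjusted p of 0.05, against 4.49% higher and 2.64% lower of all probes. The arms did not overlap for 15 members higher and 6 lower (16.3% and 6.52%), against 8% and 7.06% of all probes. Ndufb6, a membrane arm subunit of complex I, read 12.53, 12.66 and 12.51 under anti-miR-135b, against 11.48, 11.48 and 11.92 in control on probe ILMN_1242233. The difference was 0.94 (95% interval 0.39 to 1.48), with an adjusted p of 0.492. Its second probe averaged 8.36 under anti-miR-135b, against 8.30 in control, with SDs of 0.16 and 0.26 (n = 3 each). Ndufaf1, which helps to assemble the membrane arm, read 10.02, 10.12 and 10.03 under anti-miR-135b, against 9.27, 9.32 and 9.42 in control (difference 0.72, adjusted p 0.6). Sdhb read 10.13, 9.80 and 9.91 under anti-miR-135b, against 8.52, 9.58 and 9.35 in control on probe ILMN_2769065 (difference 0.79, adjusted p 0.6). The other kept Sdhb probes had smaller differences of 0.21 and 0.32. On the probes whose single arrays are given, the groups of these 3 genes did not overlap, and none passed. Below 0, Sdhd read 9.73, 9.76 and 9.71 under anti-miR-135b, against 10.14, 10.15 and 10.29 in control (difference -0.46, adjusted p 0.628). Ndufa10 (-0.45) and the dim Ndufv3 probe ILMN_2688822 (-0.37) followed.

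In the mean of 48 and 72 h the median over members was -0.0070 and 12 members (13%) had an unadjusted p under 0.05, against 7.84% of all probes. Ndufb6 on probe ILMN_1242233 stood at 0.68 (adjusted p 0.343), Cox6a1 at 0.57 (adjusted p 0.434) and Ndufaf1 at 0.52 (adjusted p 0.461). Of the 2 kept Ndufb6 probes only 1 was above 0, so they differed in sign. Sdhd stood at -0.42 (adjusted p 0.47), Cox5a at -0.44 (adjusted p 0.5) and Cox6c at -0.45 (adjusted p 0.572). Whether the inhibitor difference at 72 h differed from that at 48 h was tested as an interaction. No member and 0 of all probes passed, and 8 members (8.7%) had an unadjusted p under 0.05, against 5.5% of all probes. The members of smallest p were Cox6b1 at 0.99, Atp5e at 0.69 and Cox5b at 0.75 above 0, and Ndufa8 at -0.71, Atp5pb at -0.76 and Ndufv3 (ILMN_2688822) at -0.64 below it, all with an adjusted p of 0.852.

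**Figure D4:**
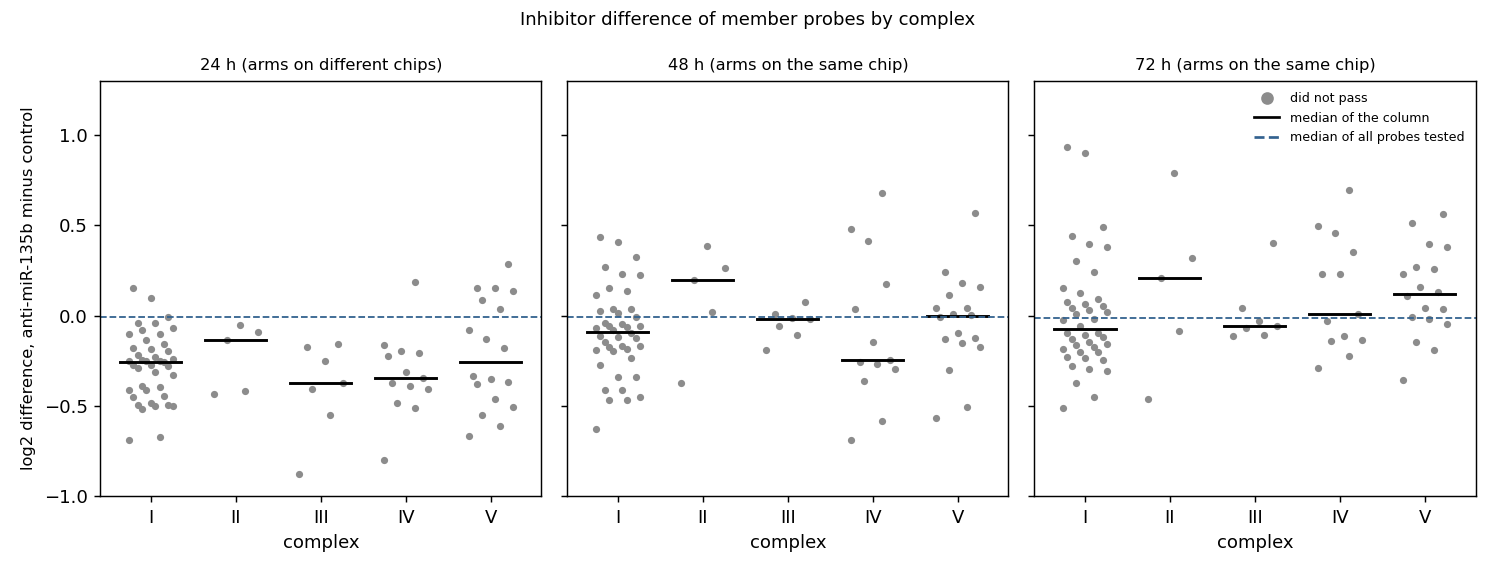
Log2 difference of each subunit probe, anti-miR-135b minus control, by complex at 24, 48 and 72 h, with column medians (black bars) and the median of all probes tested (dashed line); no probe shown passed the test. At 24 h the column medians lie between -0.37 and -0.13, with the arms on different chips.

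Later in culture, 72 h against 48 h over both arms, fewer members passed and in both directions. Of 92 probes 8 passed (8.7%), 6 higher and 2 lower at 72 h, against 12.8% of all probes, 5.78% higher and 7.04% lower, so the share of calls was not above the background. It was above it without background correction (17.4%, against 13% of all probes) and in the authors' deposited table (17.4%, against 13.4%). With median scaling 10 members passed, 0 higher and 10 lower, against 181 higher and 1456 lower of all probes, so the split of directions depends on the scaling. The median difference was 0.0036 over members and 0.00098 over all probes. With median scaling 18 members were above 0 and 74 below, and 32.1% of all probes were above 0. The times lay on different chips, so chip and time cannot be told apart. Ndufb2 was higher at 72 h, at 10.56, 10.26 and 9.98 under anti-miR-135b and 10.30, 10.55 and 10.01 in control. At 48 h it had read 9.27, 9.12 and 9.16 under anti-miR-135b and 9.82, 9.66 and 9.95 in control. All 6 arrays at 72 h lay above all 6 at 48 h, a difference of 0.78 ± 0.14 (SE, adjusted p 0.00123). Also higher were Ndufv3 on probe ILMN_2668977 (0.80, adjusted p 0.0211) and 1 of the 4 Ndufs4 probes (0.54, adjusted p 0.0265). Of the 3 kept Ndufv3 probes, 2 were above 0, and the probes differed in sign. Cox7a2l (0.54, adjusted p 0.0239), Sdhd (0.53, adjusted p 0.0183) and Ndufa6 (0.50, adjusted p 0.0458) were higher too. Cox5a fell by 0.84, with means of 11.74 at 72 h and 12.58 at 48 h (adjusted p 0.00166). Atp5b, the catalytic beta subunit, fell by 0.47 (adjusted p 0.0481). Leaving out 1 array at a time gave 2 to 11 calls, with 2 calls without anti-miR-135b replicate 15 at 48 h and 3 without control replicate 5 at 48 h (2.17% and 3.26%, against 9.53% and 9.08% of all probes). Without control replicate 8 or anti-miR-135b replicate 16 at 72 h there were 4 (4.35% in each, against 9.14% and 10.4% of all probes). Without control replicate 7 at 72 h there were 5 (5.43%, against 9.66%).

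Other genes of mitochondrial energy metabolism were read in the comparison of 72 h with 24 h in anti-miR-135b cells. Over all probes tested, 4.2% passed higher and 3.77% lower there. The shares of calls in the lists of assembly factors and of mitochondrial DNA maintenance and transcription lay near those values. Of assembly factors outside the naming rule, 22 of 36 kept probes were above 0 and 14 below, with a median of 0.28. Past the threshold, 2 were higher at 72 h and 2 lower. Coa3, a factor of complex IV assembly, rose by 1.02 (adjusted p 0.0136), and Sdhaf3, a factor of complex II assembly, by 0.74 (adjusted p 0.0286). Cox10, which makes haem O for complex IV, fell by 1.08 (adjusted p 0.0335), and a probe of Lrpprc, which stabilizes mitochondrial mRNAs, fell by 0.80 (adjusted p 0.0437). Of the TCA cycle and pyruvate dehydrogenase, 8 of 18 probes were above 0 and 10 below, with a median of -0.17. Past the threshold, 0 were higher and 2 lower. Those were Ogdh (-0.86, adjusted p 0.0256) and Dld (-0.82, adjusted p 0.0404), both of the 2-oxoglutarate dehydrogenase complex. Of the genes of nucleotide and phosphate exchange, 3 of 7 probes were above 0 and 4 below. Past the threshold, 0 were higher and 2 lower. These were Slc25a3, the phosphate carrier, which fell by 1.12 (adjusted p 0.00639), and Slc25a5, an ADP and ATP exchanger, which fell by 1.24 (adjusted p 0.0152).

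Of mitochondrial DNA maintenance and transcription, 9 of 18 probes were above 0 and 9 below, with a median of -0.030. Past the threshold, 1 was higher and 1 lower. Polg2, the accessory subunit of the mitochondrial DNA polymerase, rose by 0.89 (adjusted p 0.0228), and Mterf3, a repressor of mitochondrial transcription, fell by 1.04 (adjusted p 0.0323). Among electron carriers and further subunits 0 of 13 probes passed, with a median of -0.12, and Etfb, the electron transfer flavoprotein subunit, had 0.67 (adjusted p 0.055). Among regulators of nuclear respiratory genes 0 of 9 probes passed, and Nfe2l2 (-0.67, adjusted p 0.16) and Nrf1 (-0.46, adjusted p 0.27) had the smallest p. The mitochondrially encoded subunits had no probe under the 26 names searched, so their levels were not analysed here. None of these lists had a probe that passed in control at 48 h against 24 h, or between the arms at 24, 48 or 72 h. In control at 48 h against 24 h the smallest adjusted p in each list lay between 0.133 (Etfb) and 0.58 (Vdac2). At 72 h against 48 h over both arms, where chip and time cannot be told apart, some lists had calls. Other assembly factors had 1 higher and 4 lower of 36 probes, and electron carriers 0 higher and 1 lower of 13. The TCA cycle had 0 higher and 2 lower of 18, and nucleotide exchange 0 higher and 2 lower of 7. Of all probes tested, 5.78% passed higher and 7.04% lower there.

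**Figure D5:**
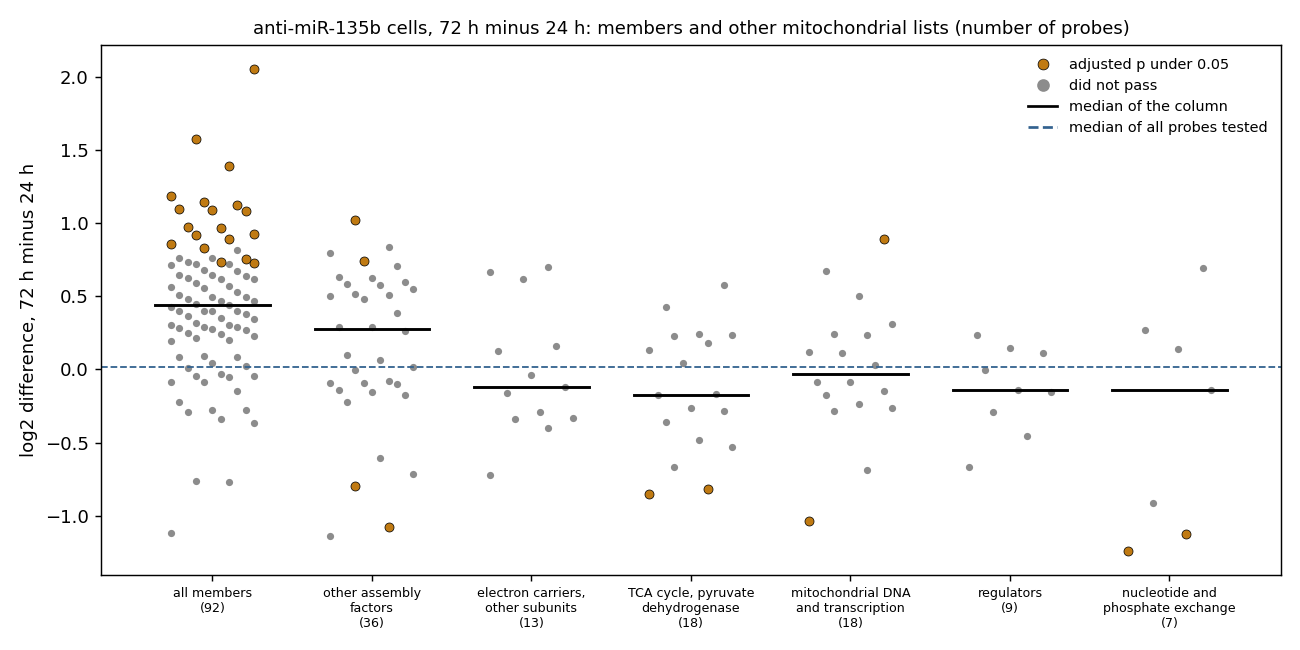
Log2 difference in anti-miR-135b cells, 72 h minus 24 h, of all member probes (left) and of 6 lists of other mitochondrial genes, with the number of probes in brackets; orange points passed an adjusted p of 0.05 in limma, black bars are medians and the dashed line is the median of all probes tested. The member median is 0.44, that of other assembly factors 0.28, and those of the 5 remaining lists lie between -0.17 and -0.030.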

How the data were processed

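Per the file headers, the deposited table holds the bead-averaged intensity of each probe on each of 16 Illumina mouse arrays, made with GenomeStudio per the submitters' processing notes. All values were above 0 and array medians differed, and the labels do not say whether background was subtracted. A second table deposited by the authors is on the log2 scale, normalized by a method not given in the sources used here, and served only as an alternative. Its columns ranked probes like the arrays of the same samples (Spearman's rho 0.999 or more), and their medians lay between 8.24 and 8.26, so scale and direction were taken from that match and its centring is unknown.

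In limma 3.58.1 (R 4.3.3) the intensities were background corrected by normexp (saddle, offset 50), quantile normalized and taken to log2. Probes with a mean above the median of all probes, 7.1, were kept, with no averaging of probes. Platform annotation gave 1 symbol to 23978 probes and none to 1719. lmFit and eBayes fitted 6 group means (10 residual and 7.76 prior degrees of freedom). Tests were two-sided in 8 contrasts, with Benjamini-Hochberg adjustment over 12848 probes and a threshold of 0.05. Values come from few arrays per group, which limits their precision. No detection p-values came with the intensities used here. The steps were tested on simulated data. Alternatives changed the background correction, offset, scaling, filter, array weights and groups fitted, and left out each array in turn.

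Members and lists were chosen with earlier results of these data known. Named were up to 10 member probes past the threshold per direction, or the 3 of smallest p where none passed, the brightest and most variable genes per complex, listed isoforms, Sdh genes, genes whose probes differ in sign, and up to 3 genes per list. Ndufs7, Atp5o and Atp5mpl, the genes just outside the threshold and the sequences shown were chosen after their values were seen.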

Additional observations from a re-analysis of the deposited data

How the results depend on the processing

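In anti-miR-135b cells at 72 h against 24 h, 19 members passed the threshold. The number was 11 with median scaling (12%, against 2.93% of all probes). With array weights, whose estimation stopped before it converged, the number was 34, with 31 higher and 3 lower (37%, against 17%). It was 0 to 13 with 1 array left out (0.195% to 5.27% of all probes), and the median was 0.37 without a filter and 0.39 to 0.52 with 1 array left out. For control at 48 h against 24 h, 1 member passed without background correction (1.09%, against 1.07% of all probes) and 31 with median scaling (33.7%, against 9.86%), 0 with 1 array left out, and the median of 0.17 became 0.88 with median scaling, 0.038 in the authors' deposited table and 0.11 to 0.19 with 1 array left out. For 72 h against 48 h, the 8 calls became 16 without background correction and in the authors' deposited table (17.4% in each, against 13% and 13.4% of all probes), 24 with array weights (26.1%, against 24.9%) and 2 to 11 with 1 array left out (9.08% to 15.7% of all probes), and the median was -0.26 with median scaling and 0.081 in the authors' deposited table. With median scaling the member median of the inhibitor difference was -0.031 at 24 h, -0.60 at 48 h, 0.27 at 72 h, -0.14 in their mean and 0.99 in the interaction, and the medians of all probes moved too, to 0.12, -0.27, 0.077, -0.082 and 0.37. In the authors' deposited table it was 0.043 at 48 h, 0.070 in the mean and 0.020 in the interaction. The interaction median was 0.16 over members and 0.011 over all probes in the main fit, and the member median ran between 0.070 and 0.21 with 1 array left out. No member passed between the arms under any of the alternatives run.

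For 63 differences of named members, 962 alternative values were made: 823 kept sign and side of the threshold, 126 no longer passed, 4 newly passed and 9 changed sign. With median scaling Atp5pb (-0.050) and Cox7a2l (-0.10) changed sign at 48 h, Ndufa8 (0.014) and Atp5pb (0.12) in the interaction, and Cox6a1 (0.22), Ndufa8 (0.19) and Uqcrc2 (0.26) in control at 48 h against 24 h. Ndufc1 at 24 h ran from -0.073 to 0.38 and Uqcrc2 in control at 48 h against 24 h from -1.15 to 0.067 with 1 array left out. The causes were not tested. No paired analysis was possible because the replicate numbers of the labels are not shared between groups. Dim probes limit the precision of their differences.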
